A study of Mus musculus with 8 samples.

Results

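The genes described here encode proteins of the synaptic vesicle and of the machinery that fuses it with the presynaptic membrane. They were the 38 genes of a fixed list of names (synaptotagmins, SNARE proteins, complexins, synapsins, SV2 proteins, Rab3 GTPases, Doc2 proteins, tetraspan vesicle proteins and the factors that take SNARE complexes apart), each found as 1 row among the 54532 genes of the deposited count table. All 38 passed the filter on low counts, which kept 17195 genes. Cortical RNA was sequenced from 8 mice at 8 mo of age, 1 library per mouse. PS19 mice (mice 1 to 4, labelled m677, m668, m665 and m659) carry a transgene for human 1N4R tau with the P301S mutation, driven by the mouse prion promoter. Adrb1-A187V;PS19 mice (mice 1 to 4, labelled m671, m661, m660 and m658) carry the same transgene and, on 1 of their 2 Adrb1 alleles, the A187V change, a knock-in made with CRISPR/Cas9 in the gene of the β1-adrenergic receptor. All were C57BL/6 and singly housed under a 12:12 light-dark cycle. The tau transgene was present in both groups, so the comparison is of the receptor allele on a tau background and holds no mouse without tau. The study's methods describe littermate controls and mostly male mice, and the cortex was taken as bulk tissue, in which fewer cells of a type and less RNA per cell cannot be told apart.

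Neurotransmitter release depends on SNARE proteins, which zip together across the vesicle and the plasma membrane and draw them into fusion. Complexins hold partly assembled SNARE complexes, synaptotagmins sense the calcium that enters with an action potential, and NSF with its SNAP adaptors takes the complexes apart for reuse. Synapsins tether vesicles in the reserve pool, Rab3 proteins help to dock them, and synaptophysin, the synaptogyrins and SV2 proteins are integral proteins of the vesicle membrane. Many of these proteins exist as paralogs that different neurons use in different proportions, and in cortex Syt2 and Vamp1 are known from fast-spiking parvalbumin interneurons, while Syt1 and Vamp2 are used widely.

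The libraries held between 14653222 and 21223754 counts, with TMM factors (edgeR's scaling of library sizes) from 0.990 to 1.01. Counts per gene do not show the base change in Adrb1 and so do not check the genotype labels. Values per gene are given as CPM, counts scaled to a library of equal size after that adjustment, and compare mice within a gene. Levels between genes are given per length, as TPM, counts over gene length scaled to the same sum in each mouse. The 5 pan-neuronal marker genes summed to between 3642 and 3689 CPM in PS19 mice and between 3348 and 3835 CPM in Adrb1-A187V;PS19 mice.

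Levels of these genes spread widely, and 24 of the 38 had a mean over 100 CPM, as did 2341 of the 17195 genes tested. The 38 genes together held 1.57% ± 0.0415 of all counts in PS19 mice (SD, n = 4). In Adrb1-A187V;PS19 mice the share was 1.54% ± 0.0596 (SD, n = 4), and single mice lay between 1.48% and 1.61%. By count, Snap25, Syt1, Cplx2, Vamp2 and Nsf made up 43.6% of the group. Per length, Snap25 was the highest, with a mean level of 1165 TPM and single mice between 1063 and 1336 TPM. Cplx1 followed with 981 TPM, Cplx2 with 933 TPM, Vamp2 with 874 TPM and Rab3a with 827 TPM, and the ranges of these neighbours over the 8 mice overlapped. Altogether 23 genes had a level over 100 TPM. The highest of the other 15 was Vamp1 at 58.0 TPM, well apart from Rab3c at 161 TPM, the lowest of the 23. The lowest 3 were Syt10 at 15.6 TPM, Syt9 at 10.4 TPM and Syn3 at 4.46 TPM.

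**Figure D1:**
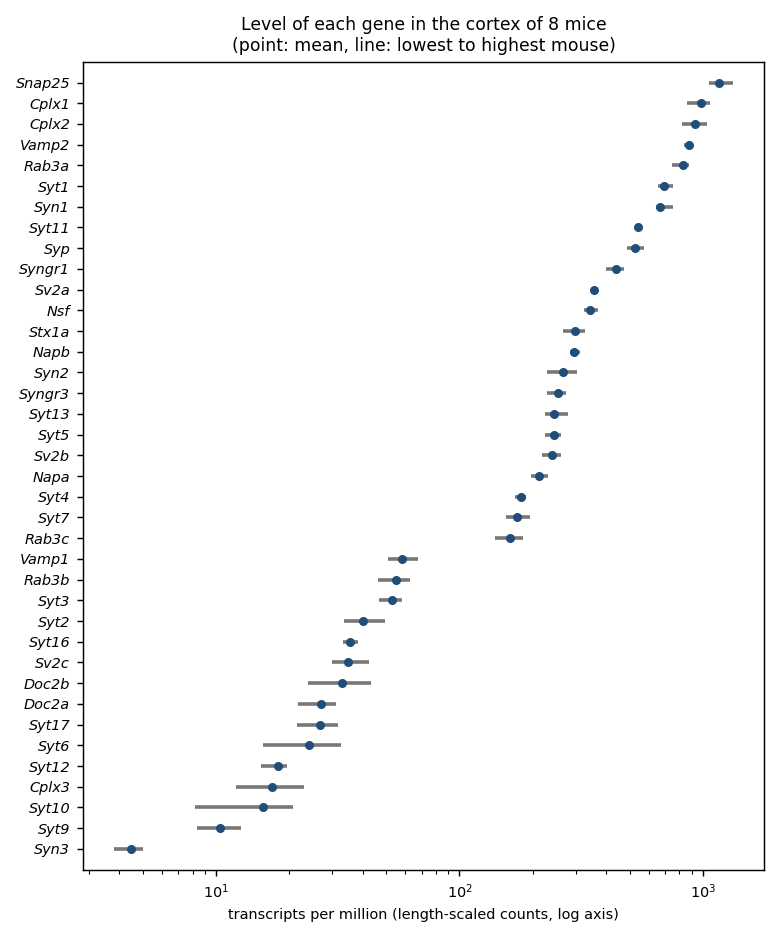
Length-scaled level (TPM, log axis) of each of the 38 genes over the 8 mice; points are means and lines run from the lowest to the highest mouse. Levels run from 4.46 TPM for Syn3 to 1165 TPM for Snap25, with a gap between Vamp1 (58.0 TPM) and Rab3c (161 TPM).

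Promoter sequence of the genes that the comparisons turn on was read from RefSeq (GRCm38.p6). The table matched 26 of the 38 genes, with 35 promoters of 250 bases before and 50 after the start. The 250 bases before the start are printed 5′ to 3′ on the gene's strand for Sv2c (chr13:96132578-96132827, minus strand), the one gene past the unadjusted threshold in the genotype comparison, and for Syt2 (chr1:134646362-134646611, plus strand, the more upstream of its 2 starts) and Vamp1 (chr6:125215331-125215580, plus strand), which varied together over the mice. Capitals mark GGGCGG, the core of the GC box bound by Sp1, on either strand.
Sv2c: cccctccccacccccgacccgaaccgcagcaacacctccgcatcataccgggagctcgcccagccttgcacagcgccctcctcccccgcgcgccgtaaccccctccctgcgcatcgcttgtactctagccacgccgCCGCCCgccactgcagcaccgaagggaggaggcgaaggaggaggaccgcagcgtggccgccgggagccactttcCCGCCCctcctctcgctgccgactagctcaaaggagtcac
Syt2: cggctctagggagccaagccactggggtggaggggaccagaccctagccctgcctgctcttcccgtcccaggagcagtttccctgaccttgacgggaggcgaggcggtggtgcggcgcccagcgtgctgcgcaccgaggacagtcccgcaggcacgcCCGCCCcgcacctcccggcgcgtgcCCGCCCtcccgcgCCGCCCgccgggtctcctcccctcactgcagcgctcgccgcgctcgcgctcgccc
Vamp1: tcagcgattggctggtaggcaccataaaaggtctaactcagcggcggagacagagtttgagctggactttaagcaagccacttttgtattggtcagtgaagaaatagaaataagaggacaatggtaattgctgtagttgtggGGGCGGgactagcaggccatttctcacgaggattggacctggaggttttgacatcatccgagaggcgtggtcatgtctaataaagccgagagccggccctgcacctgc

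GGGCGG occurred 2 times in the Sv2c stretch, 3 times in that of Syt2 and 1 time in that of Vamp1. Over the whole 300 bases, on both strands, it occurred in 23 of the 35 promoters of the group and in 35.7% of the 32851 promoters in the table. TGACGTCA, the full cAMP response element, the site of the factor CREB, occurred in the promoters of Napa and Syn1, 2 of 35, beside 1.79% of all promoters. The long core of the site of the neuronal repressor REST occurred in none of the 35 and in 0.0365% of all, and TATAAA occurred in 3 of 35 and 13.6% of all. Only exact matches were counted and near matches were not searched for, so a count of none does not show that a promoter lacks a site. The Syn1 promoter, for example, holds a stretch that differs from the REST core in 1 letter. Each motif was searched by itself, so matches of different motifs may overlap. These are matches of letters in fixed windows, and the RNA data do not show whether a factor was bound there.

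The first comparison asked whether expression of these genes differed between Adrb1-A187V;PS19 and PS19 mice. By edgeR's quasi-likelihood test, 1 of the 38 genes (2.63%), the SV2 paralog Sv2c, had an unadjusted p-value under 0.05, against 2.8% of all genes tested (481 of 17195). It was higher, as were 1.42% of all genes at this threshold, and none of the 38 was lower, as were 1.37% of all genes. This share is near the background and is no result about the group. No gene of the 38 had an adjusted p-value under 0.05 (Benjamini-Hochberg over all genes), and neither had any other gene, the smallest adjusted p in the table being 0.9996. In none of the 38 did the CPM values of the genotypes stand apart without overlap, which 2.02% of all genes did.

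The differences were small. The log2 fold changes (Adrb1-A187V;PS19 minus PS19) ran from -0.18 for Cplx3 to 0.23 for Sv2c, with a median of -0.03, beside a median of 0.00046 over all genes. Of the 38 genes, 23 had a value below 0 (60.5%, against 49.8% of all genes) and 15 a value above 0. The size of the change without its sign had a median of 0.045 on the log2 scale for these genes and 0.068 for all genes. The values below 0 lay mostly among the abundant genes. Of the 24 genes with a mean over 100 CPM, 18 were below 0 with a median of -0.04, while of the 2341 genes in the table above that level 57.8% were below 0 with a median of -0.01. Of the 14 genes at lower levels, 5 were below 0.

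The replicates were close enough to bound most of these differences. For 27 of the 38 genes the 95% interval of the log2 fold change lay within ±0.25, a change of no more than 1.19-fold in either direction, and for 35 it lay within ±0.5. The biological coefficient of variation between mice of a genotype, which edgeR estimates by drawing each gene toward a trend over all genes, had a median of 7.57% for these genes and 10.1% for all genes. It was lowest for Syt11 at 5.59% and highest for Syt10 at 25.1%. Among all genes over 100 CPM the median of this estimate was 6.61%. It can exceed the plain spread of a steady gene: the coefficient of variation of Syt11 CPM over the 8 mice was 1.31%.

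**Figure D2:**
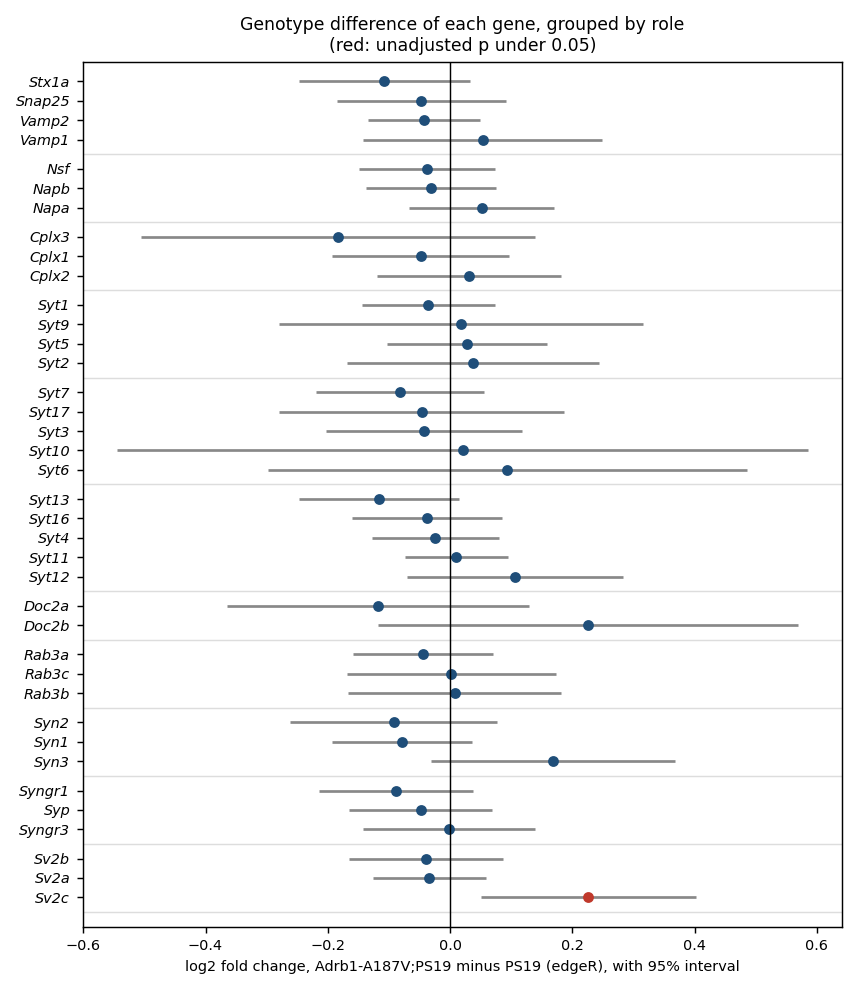
Log2 fold change of each gene with its 95% interval (edgeR, 4 mice per genotype), grouped by role from SNARE proteins at the top to SV2 proteins at the bottom. All points lie between -0.18 and 0.23, and the interval of Sv2c (red) alone leaves out 0.

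SNARE proteins carry out the fusion step. Snap25, a plasma membrane SNARE, had 2003, 2244, 2491 and 2169 CPM in PS19 mice 1 to 4 and 2245, 2295, 2005 and 2080.2 CPM in Adrb1-A187V;PS19 mice 1 to 4. The highest value was in PS19 mouse 3 and the lowest in PS19 mouse 1, so the spread within that genotype covered the other, and the log2 fold change was -0.05 ± 0.06 (SE). Stx1a, the syntaxin that pairs with it, had 220.4, 224, 226 and 241 CPM in PS19 mice and 221, 236, 194 and 196 CPM in Adrb1-A187V;PS19 mice. The lowest values were in Adrb1-A187V;PS19 mice 3 and 4, and the log2 fold change was -0.11 ± 0.07 with an unadjusted edgeR p of 0.121.

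Vamp2, the main vesicle SNARE, was among the steadiest genes. Its values were 927, 964, 913 and 937 CPM in PS19 mice and 933, 935, 878 and 887 CPM in Adrb1-A187V;PS19 mice, with a difference of -0.04 ± 0.04 on the log2 scale. Its paralog Vamp1 had 154, 144, 188 and 155 CPM in PS19 mice and 180.0, 186, 153 and 146 CPM in Adrb1-A187V;PS19 mice. A few of the mice, PS19 mouse 3 and Adrb1-A187V;PS19 mice 1 and 2, stood above the rest across both genotypes, and the log2 fold change was 0.05 ± 0.09.

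Nsf, the ATPase that separates used SNARE complexes, and its adaptors Napa and Napb had log2 fold changes between -0.04 and 0.05. Napb, the adaptor known from brain, had 558, 615, 582 and 583 CPM in PS19 mice and 564, 612, 548 and 563 CPM in Adrb1-A187V;PS19 mice. PS19 mouse 2 and Adrb1-A187V;PS19 mouse 2 were high and the genotypes overlapped throughout.

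Complexins bind the assembled SNARE bundle and clamp or promote fusion. Cplx1 had 590.2, 597, 646 and 584 CPM in PS19 mice and 632, 639, 546 and 520.2 CPM in Adrb1-A187V;PS19 mice, the second genotype holding both some of the highest and the 2 lowest values. Cplx2 had 1127, 1431, 1226 and 1255 CPM in PS19 mice and 1384, 1255, 1170.4 and 1337 CPM in Adrb1-A187V;PS19 mice. The log2 fold changes were -0.05 ± 0.07 and 0.03 ± 0.07. Cplx3, a complexin of few cortical cells, had the most negative log2 fold change of the group. It measured 18.8, 12.8, 12.4 and 14.9 CPM in PS19 mice and 14.2, 13.0, 14.8 and 9.90 CPM in Adrb1-A187V;PS19 mice. PS19 mouse 1 was highest and Adrb1-A187V;PS19 mouse 4 lowest while the other 6 overlapped, and the log2 fold change of -0.18 ± 0.15 had an unadjusted edgeR p of 0.241.

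The fast calcium sensors Syt1, Syt2, Syt5 and Syt9 had log2 fold changes between -0.04 and 0.04. Syt1, the main sensor for synchronous release in forebrain, had 1575, 1578, 1704 and 1650 CPM in PS19 mice and 1559, 1738, 1534 and 1517 CPM in Adrb1-A187V;PS19 mice. The highest mouse and the lowest 3 were all Adrb1-A187V;PS19. Syt2, its faster paralog, had 80.7, 71.3, 104 and 79.7 CPM in PS19 mice and 90.5, 91.1, 84.5 and 79.0 CPM in Adrb1-A187V;PS19 mice. PS19 mice held both the highest and the lowest Syt2 value, and the log2 fold change was 0.04 ± 0.10.

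Syt3, Syt6, Syt7 and Syt10, slower or dense-core calcium sensors, were listed together with Syt17. Of these 5 genes, 3 were below 0 and none passed the test. Syt7, known for asynchronous release and vesicle replenishment, had 357, 363, 359 and 355 CPM in PS19 mice and 319, 393, 321 and 323 CPM in Adrb1-A187V;PS19 mice. Of the Adrb1-A187V;PS19 mice, 3 lay below every PS19 mouse and mouse 2 lay above them all. The log2 fold change was -0.08 ± 0.06 with all 8 mice (edgeR, unadjusted p = 0.223) and -0.16 without that mouse (edgeR, unadjusted p = 0.00478). The second fit is quoted because that mouse went against the others, so its p-value is no support for a difference. In that fit 674 of 17450 genes had an unadjusted edgeR p under 0.05, against 481 of 17195 with all 8 mice. Syt6 and Syt10 had the widest intervals of the group, and for Syt10 the data allow a log2 fold change anywhere between -0.54 and 0.59.

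The other synaptotagmins, Syt4, Syt11, Syt12, Syt13 and Syt16, are not known as calcium triggers of fusion. Syt4 had 186, 191, 198 and 201 CPM in PS19 mice and 190.2, 183, 194 and 197 CPM in Adrb1-A187V;PS19 mice, and its log2 fold change was -0.02 ± 0.05. Exons of Gm26658 on the opposite strand share 14.5% of the exon bases of Syt4. Syt13 had 242, 260, 270 and 290 CPM in PS19 mice and 253, 259, 233 and 235 CPM in Adrb1-A187V;PS19 mice. The lowest 2 of the 8 values were in Adrb1-A187V;PS19 mice 3 and 4 and the highest 2 in PS19 mice 3 and 4, and the log2 fold change was -0.12 ± 0.06 (edgeR, unadjusted p = 0.0789). Syt11 varied least of all, between 769 and 792 CPM, with a log2 fold change of 0.01 ± 0.04.

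Doc2 proteins are soluble C2-domain proteins linked to spontaneous release. Doc2a had 22.8, 19.6, 22.3 and 22.05 CPM in PS19 mice and 24.5, 21.3, 16.5 and 17.8 CPM in Adrb1-A187V;PS19 mice. The highest and the 2 lowest values belonged to the second genotype, and the log2 fold change was -0.12 ± 0.11. In the annotation 39.4% of the exon bases of Doc2a also lie in exons of Ino80e on the opposite strand, and without a stated strand setting reads of the 2 genes cannot be told apart. Doc2b had 36.6, 44.2, 28.5 and 37.1 CPM in PS19 mice and 47.2, 28.8, 42.4 and 52.5 CPM in Adrb1-A187V;PS19 mice. It varied widely in both genotypes, and its log2 fold change of 0.23 ± 0.16 (edgeR, unadjusted p = 0.179) was as large as that of Sv2c with a wider standard error.

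Rab3 proteins are the vesicle-bound GTPases. Rab3a, the most abundant, had 509, 518, 505 and 539 CPM in PS19 mice and 531, 530.4, 486 and 461 CPM in Adrb1-A187V;PS19 mice, with both of the lowest values in Adrb1-A187V;PS19 mice 3 and 4. The log2 fold change was -0.04 ± 0.05, and those of Rab3b and Rab3c were 0.01 ± 0.08 and 0.0020 ± 0.079.

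Among the synapsins, Syn1 had 616, 629, 586 and 682 CPM in PS19 mice and 632, 585, 578 and 586 CPM in Adrb1-A187V;PS19 mice. Apart from mouse 1, the Adrb1-A187V;PS19 mice lay just below the lowest PS19 mouse, and the log2 fold change was -0.08 ± 0.05 (edgeR, unadjusted p = 0.164). Syn2 was at -0.09 ± 0.08. Syn3, the least abundant gene of the group, had 14.0, 15.5, 14.9 and 12.8 CPM in PS19 mice and 15.3, 17.0, 15.2 and 16.7 CPM in Adrb1-A187V;PS19 mice. Adrb1-A187V;PS19 mice 2 and 4 were the highest of the 8, PS19 mouse 2 lay above the other 2, and the log2 fold change was 0.17 ± 0.09 (edgeR, unadjusted p = 0.0903). Exons of Timp3 on the opposite strand share 14.1% of the exon bases of Syn3.

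The tetraspan vesicle proteins Syp, Syngr1 and Syngr3 all had log2 fold changes below 0, from -0.09 to -0.0014, although that of Syngr3, the one nearest 0, was above 0 with library totals alone (0.0030) and with limma-voom (0.0030). Syp, which encodes synaptophysin, had 757, 785, 715 and 825 CPM in PS19 mice and 784, 774, 719.8 and 704 CPM in Adrb1-A187V;PS19 mice, and the genotypes overlapped. Exons of Gm14703 on the opposite strand share 16.8% of the exon bases of Syp.

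The SV2 proteins are transporter-like glycoproteins of the vesicle membrane. Sv2a, the widespread paralog, had 451, 478, 464 and 470.4 CPM in PS19 mice and 455, 469.9, 449.6 and 446 CPM in Adrb1-A187V;PS19 mice, with a difference of -0.03 ± 0.04 on the log2 scale. Sv2b was at -0.04 ± 0.06. Sv2c, the paralog known from the basal ganglia, was the one gene of the 38 with an unadjusted p under 0.05. It lies on the minus strand of chromosome 13 (GRCm38, 95954594 to 96132577) and had a level of 34.7 TPM, against 359 TPM for Sv2a. Its values were 80.5, 96.7, 86.1 and 80.6 CPM in PS19 mice and 105, 93.1, 90.1 and 114 CPM in Adrb1-A187V;PS19 mice. Every Adrb1-A187V;PS19 mouse lay above 3 of the 4 PS19 mice, but PS19 mouse 2 lay above Adrb1-A187V;PS19 mice 2 and 3. The means were 86.0 ± 7.63 and 101 ± 11.1 CPM (SD, n = 4 each), and the log2 fold change was 0.23 ± 0.08 with a 95% interval of 0.05 to 0.40 (edgeR, unadjusted p = 0.0155, adjusted p = 0.9996). Without Adrb1-A187V;PS19 mouse 4 it was 0.16 and no longer had an unadjusted p under 0.05 (edgeR, unadjusted p = 0.0641).

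Beside Sv2c, all 7 marker genes of striatal projection neurons had log2 fold changes above 0, with a median of 0.32, and none had an unadjusted p under 0.05. Their summed level was between 916 and 1820.0 CPM in PS19 mice and between 932 and 2042 CPM in Adrb1-A187V;PS19 mice. By their score (the mean over the list of log2 CPM minus each gene's mean), the highest 3 mice were Adrb1-A187V;PS19 mouse 1 at 0.66, PS19 mouse 2 at 0.49 and Adrb1-A187V;PS19 mouse 4 at 0.41, which were also the 3 mice with the most Sv2c. The lowest was Adrb1-A187V;PS19 mouse 2 at -0.57. All 6 marker genes of basal forebrain cholinergic neurons had an unadjusted edgeR p under 0.05 and were higher in Adrb1-A187V;PS19 mice, their sum running from 16.4 to 31.6 CPM in PS19 mice and from 32.9 to 46.2 CPM in the others. All 7 excitatory cortical markers had log2 fold changes below 0, 3 of them with an unadjusted edgeR p under 0.05, and summed to between 1508 and 1743 CPM in PS19 mice and between 1356 and 1572 CPM in Adrb1-A187V;PS19 mice. Over all genes tested, 1.42% were higher and 1.37% lower at this threshold, and none had an adjusted p under 0.05. The lists were chosen with earlier results of these data known, so these counts are descriptions. None of these markers was at 0 in any mouse. Their part in the differences of Sv2c and the other genes was not tested.

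**Figure D3:**
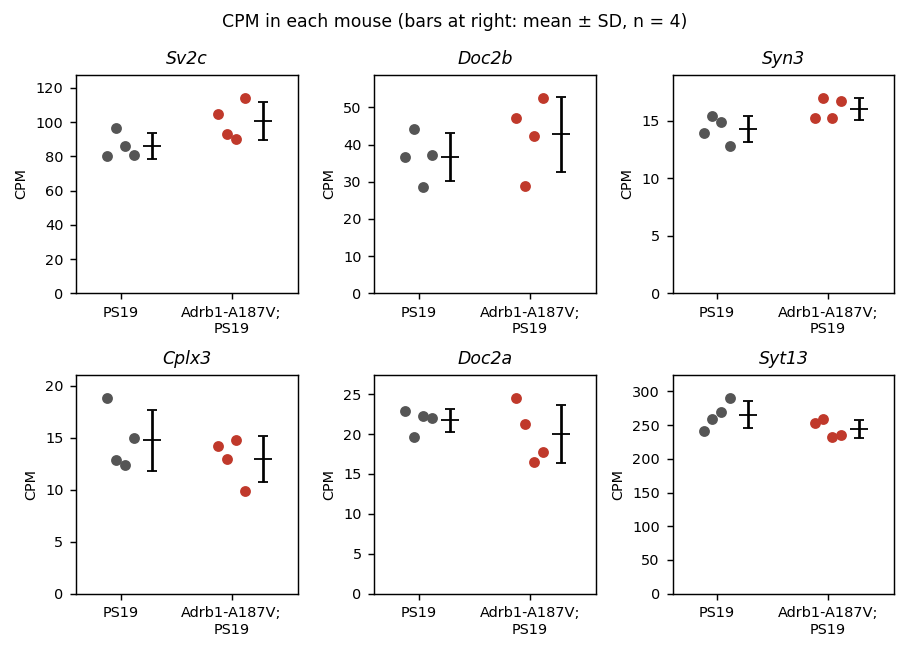
CPM in each mouse for the 3 genes with the most positive (Sv2c, Doc2b, Syn3) and the 3 with the most negative log2 fold change (Cplx3, Doc2a, Syt13), with mean ± SD at the right of each group (n = 4). In all 6 genes the values of the genotypes overlap, for Sv2c through PS19 mouse 2 at 96.7 CPM.

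The balance between paralogs was compared within each mouse, since a ratio of counts from 1 library does not depend on its scaling. None of 8 ratios differed between the genotypes by a 2-sided exact permutation test, with p-values from 0.343 to 1 and adjusted values from 0.778 to 1, where 4 mice against 4 allow a smallest p of 0.0286. Per length, Vamp1 stood at 0.0664 ± 0.00743 of Vamp2 and Syt2 at 0.0578 ± 0.00553 of Syt1 (SD over 8 mice). The Cplx1 to Cplx2 ratio was 1.06 ± 0.112, with single mice on both sides of 1. Syn1 exceeded Syn2 by 2.53 ± 0.17-fold per length and Sv2a exceeded Sv2b by 1.49 ± 0.0629-fold. By counts alone, Sv2a stood at 0.781 to 0.889 of Sv2b and Cplx1 at 0.389 to 0.527 of Cplx2 in single mice. Syn1 stood at 1.05 to 1.33 of Syn2. The size of these ratios per length, and for Sv2a and Sv2b their order, thus rests on the deposited gene length. The log2 ratio of Vamp1 to Vamp2 differed by 0.10 between genotypes, that of Napb to Napa by -0.08 and that of Sv2a to Sv2b by 0.0036.

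Other genes of the presynapse were counted from 4 lists written beside the members. Of 92 genes, 88 were tested (Cplx4, Syt8, Syngr4 and Svopl had too few counts), and 5 of them (5.68%, against 2.8% of all genes) had an unadjusted edgeR p under 0.05, 3 higher and 2 lower (1.42% and 1.37% of all genes). All 5 were on the mixed list of other vesicle membrane proteins and transporters, of which 24 genes were tested. Slc30a3, the vesicular zinc transporter, had a log2 fold change of -0.22 (edgeR, unadjusted p = 0.00461), and its CPM did not overlap between the genotypes. Slc17a7, the main cortical vesicular glutamate transporter, which is also one of the excitatory markers above, was at -0.19 (edgeR, unadjusted p = 0.0217). Slc32a1, the vesicular transporter for GABA, was at 0.18 (edgeR, unadjusted p = 0.0294), and Slc17a8, a glutamate transporter of few cortical cells, was at 0.35 (edgeR, unadjusted p = 0.0421). Slc18a3, the vesicular acetylcholine transporter and one of the cholinergic markers above, was at 0.79 (edgeR, unadjusted p = 0.025). None of the 25 other SNAREs and regulators, the 14 other synaptotagmins, Rab3 relatives and effectors or the 25 endocytosis genes tested had an unadjusted edgeR p under 0.05.

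The second comparison asked which of the 38 genes rose and fell together over the 8 mice, whatever the genotype. The 703 pairs had a median Pearson's r of 0.19 in log2 CPM, and 472 of them (67.1%) were positive, while all pairs of the 17195 genes tested had a median of -0.001. For the 24 genes over 100 CPM the median was 0.40 over 276 pairs, beside 0.07 for all genes at that level. The points of each pair are the same 8 libraries and share their depth and their dissection, so these values are descriptions. With the genotype means removed the median was 0.24. Genes with the highest median r with the rest were Vamp2 at 0.47, Stx1a at 0.44 and Rab3a at 0.43. Syt10 at -0.19, Doc2b at -0.11 and Syt2 at -0.08 were the lowest.

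The highest r was that of Stx1a with Syngr1 at 0.95, followed by Syt17 with Syn2 at 0.93 and Syt2 with Vamp1 at 0.91. The lowest was that of Syt2 with Syt17 at -0.94, followed by Syt1 with Doc2b at -0.92 and Syt10 with Vamp1 at -0.89. In all, 29 pairs lay above 0.8 and 7 below -0.8. In the matrix of all pairs, Syt2, Vamp1, Syt1, Snap25 and Cplx1 stood opposite to Syt10, Doc2b, Syt17 and Syn2, a grouping seen after the values were known and given without a test. Syt17 had 38.5, 45.9, 30.6 and 41.3 CPM in PS19 mice and 37.4, 35.6, 35.04 and 42.9 CPM in Adrb1-A187V;PS19 mice, lowest in the mouse with the most Syt2 (PS19 mouse 3) and highest in the mouse with the least (PS19 mouse 2).

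**Figure D4:**
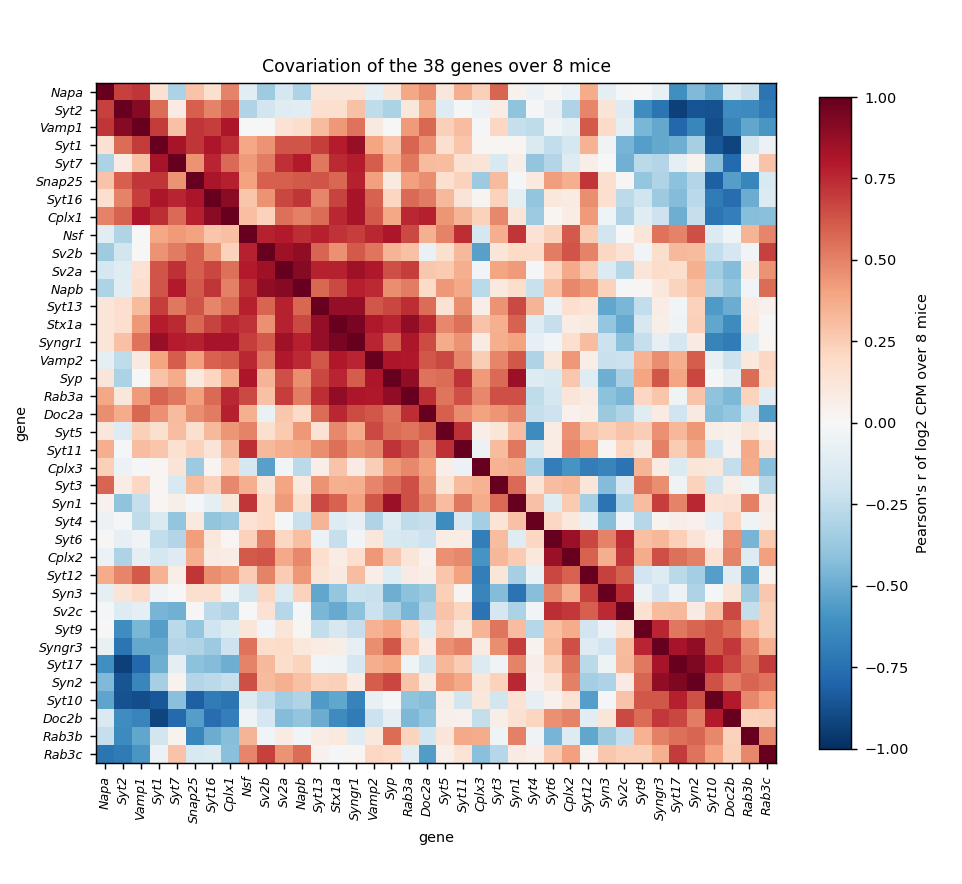
Pearson's r of log2 CPM over the 8 mice for every pair of the 38 genes, ordered by average-linkage clustering. A large positive block holds Stx1a, Syngr1, Vamp2 and Rab3a, and values run from -0.94 (Syt2 with Syt17) to 0.95 (Stx1a with Syngr1).

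For 8 pairs the relation was tested by exact permutation of the pairings, 2-sided, with Benjamini-Hochberg adjustment over the 8. The pairs were chosen with earlier results of these data known, and the adjustment does not cover that choice. Syt2 and Vamp1 gave r = 0.91 (exact permutation p = 0.000273, adjusted 0.00218) and Spearman's rho = 0.90 (exact permutation p = 0.00456, adjusted 0.0365), and r was 0.94 without the 2 mice farthest from the median of Syt2 and 0.91 with genotype means removed. Pvalb, which encodes the calcium buffer of the same interneurons, had 64.2, 45.1, 74.9 and 46.3 CPM in PS19 mice and 65.7, 60.1, 61.5 and 46.5 CPM in Adrb1-A187V;PS19 mice. PS19 mouse 3 was highest and PS19 mouse 2 lowest, as for Syt2. Its r with Syt2 was 0.85 (exact permutation p = 0.0062, adjusted 0.0166) and rho was 0.81 (exact permutation p = 0.0218, adjusted 0.0581), with r = 0.67 without the 2 farthest mice.

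Of the other 4 genes of the parvalbumin interneuron list, none had both PS19 mouse 3 highest and PS19 mouse 2 lowest, although Btbd11 was highest in the first and Kcnc1 lowest in the second. Lhx6, a transcription factor of these interneurons, had 21.5 CPM in PS19 mouse 3 and 23.1 CPM in PS19 mouse 2. Tac1, a neuropeptide gene, had 41.0 CPM and 64.7 CPM in the same mice. The highest Tac1 values, 72.6, 70.3 and 64.7 CPM, were in Adrb1-A187V;PS19 mice 1 and 4 and PS19 mouse 2, the mice with the highest striatal scores. The score of the whole list was 0.03 in PS19 mouse 3 and -0.02 in PS19 mouse 2, with its lowest value in PS19 mouse 4 at -0.16 and its highest in Adrb1-A187V;PS19 mouse 1 at 0.16. Scores of other cell types also separated these 2 mice. The score of the 5 oligodendrocyte markers was 0.16, -0.21, 0.23 and -0.17 in PS19 mice and 0.09, -0.0023, 0.04 and -0.14 in Adrb1-A187V;PS19 mice, highest in PS19 mouse 3 and lowest in PS19 mouse 2. Their summed level was between 4637 and 6249 CPM in PS19 mice and between 4857 and 5795 CPM in Adrb1-A187V;PS19 mice. The layer 6b score had these mice in the opposite order, at -0.28 in PS19 mouse 3, its lowest, and 0.16 in PS19 mouse 2, its highest. That list holds Cplx3, one of the 38 genes, and Drd1, and the score was not taken without them. The highest Drd1 values, 71.0, 65.3 and 60.7 CPM, were in Adrb1-A187V;PS19 mouse 1, PS19 mouse 2 and Adrb1-A187V;PS19 mouse 4. Those were also the mice with the highest striatal scores. The choroid plexus score was -1.15 in PS19 mouse 3 and 1.27 in PS19 mouse 2. The part of these cells in the covariation of Syt2, Vamp1, Pvalb and Syt17 was not tested.

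Sv2a with Sv2b gave r = 0.85 (exact permutation p = 0.0092, adjusted 0.0184) and rho = 0.81 (exact permutation p = 0.0218, adjusted 0.0581), with r = 0.96 without the 2 farthest mice. Syn1 with Syp gave r = 0.86 (exact permutation p = 0.00623, adjusted 0.0166) and rho = 0.71 (exact permutation p = 0.0576, adjusted 0.0922), with r = 0.69 without the 2 farthest mice. The SNARE pair Stx1a and Vamp2 gave r = 0.80 (exact permutation p = 0.0195, adjusted 0.0312) and rho = 0.74 (exact permutation p = 0.0458, adjusted 0.0916), but r was 0.03 without Adrb1-A187V;PS19 mice 3 and 4, so the relation rests on those mice. Syt1 with Snap25 gave r = 0.72 (exact permutation p = 0.0462, adjusted 0.0616) and rho = 0.67 (exact permutation p = 0.0831, adjusted 0.111), and r was 0.37 without the 2 farthest mice. Cplx1 with Cplx2 gave r = 0.07 (exact permutation p = 0.866, adjusted 0.866) and rho = 0.12 (exact permutation p = 0.793, adjusted 0.793), and r was 0.49 without the 2 farthest mice. Cplx3 with Nxph4, both known from layer 6b, gave r = 0.31 (exact permutation p = 0.382, adjusted 0.437) and rho = 0.38 (exact permutation p = 0.36, adjusted 0.411), with r = 0.56 without the 2 farthest mice.

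**Figure D5:**
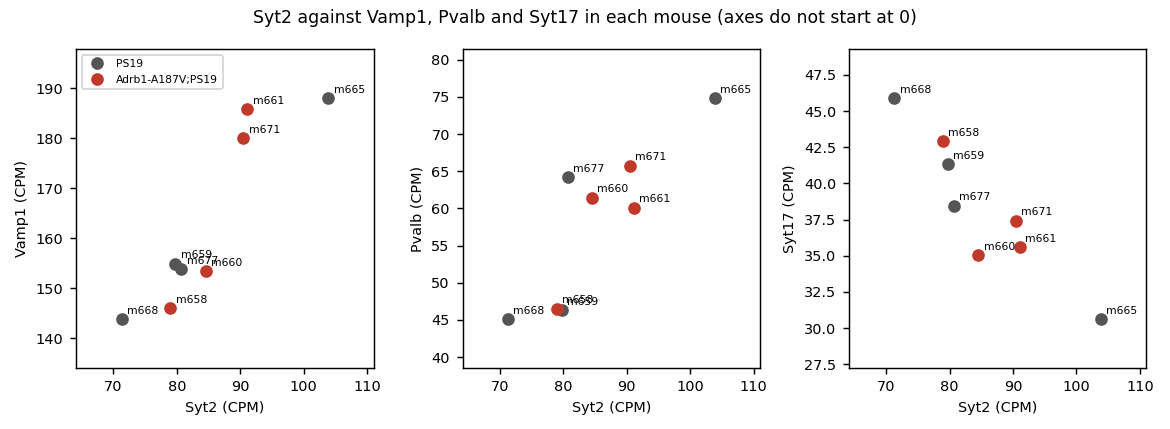
CPM of Syt2 (x axis) against CPM of Vamp1, Pvalb and Syt17 (y axes) in each of the 8 mice, coloured by genotype. Vamp1 (r = 0.91) and Pvalb (r = 0.85) rise with Syt2 and Syt17 (r = -0.94) falls, with PS19 mouse 3 (m665) and PS19 mouse 2 (m668) at the ends.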

How the data were processed

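The authors aligned clean paired-end reads of 1 cortical library per mouse to GRCm38/mm10 with HISAT2 2.0.5, counted them per Ensembl gene with featureCounts 1.5.0-p3 and deposited the counts without normalization. Strand, pairing and multiple-mapping settings are not given in the sources used here, so genes sharing exons with a gene on the other strand (14 of the 38 by GENCODE M21) have uncertain counts. The deposited gene length, in bases, was used for TPM alone, and how it was summed over exons is not given.

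Groups were taken from the genotype labels. Counts of 54532 genes were filtered with filterByExpr, scaled with TMM and compared by the 2-sided quasi-likelihood test of edgeR 4.0.16 (R 4.3.3) with genotype as the only term. Adjusted p-values are Benjamini-Hochberg values over the 17195 genes that passed. The edgeR p-values set the genotype difference against the spread between mice within a genotype. For each gene edgeR moderates that spread with information from the other genes tested. Standard errors are the log2 fold change over the square root of F. The 95% intervals use 13.5 degrees of freedom, the residual ones plus the prior ones that edgeR takes from all genes tested. Correlations use log2 CPM with a prior count of 2, and ratios use counts plus 0.5. Exact permutation tests were run with scipy 1.17.1 in Python 3.11.15. Within a genotype, pairs of libraries differed beyond counting noise (chi-square per degree of freedom 4.83 to 9.94), so each was kept as its own replicate.

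The alternatives were DESeq2 1.42.0, limma-voom (limma 3.58.1), DESeq2 size factors, library totals alone, no filter beyond 1 count, at least 10 counts in every mouse, prior counts of 5 for ratios and 0.5 for correlations, genotype means removed, and each mouse left out. The scripts were tested on simulated data.

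The members, the lists of other genes and the tests were chosen with earlier results of these data known. Values in every mouse were given for 16 preset genes, for members with an unadjusted p under 0.05 and for the 3 largest changes in each direction, with Syt17, Lhx6, Tac1, Btbd11 and Kcnc1 added after their values were seen. Of other lists, genes with an unadjusted p under 0.05 were named.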

Additional observations from a re-analysis of the deposited data

Results flagged for a closer look

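Among the values of Adrb1-A187V;PS19 mice, 3 stood apart from the others of their group by Dixon's criterion at the 95% level, out of 92 groups of 4 values examined, where chance alone flags about 1 in 20. Syt7 was 392.7 CPM in mouse 2 (m661), with the others between 318.6 and 322.8 CPM. Syn1 was 631.9 CPM in mouse 1 (m671), with the others between 577.8 and 585.8 CPM. The log2 ratio of Syngr3 to Syngr1 counts was -2.18 in mouse 2 (m661), with the others between -1.91 and -1.86.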

How the results depend on the processing

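The precision of these values is set by 4 mice per genotype and, for genes of few counts such as Syn3, Syt9 and Syt10, by depth. Sv2c kept an unadjusted p under 0.05 under all 6 alternatives of test, scaling and filter and lost it without Adrb1-A187V;PS19 mouse 4, its log2 fold change running from 0.16 to 0.29 over the 8 fits that leave out 1 mouse. When every gene with a count in some mouse was kept, 1366 of 33614 genes had an unadjusted edgeR p under 0.05. In that fit 66 genes had an adjusted one, none of them among the 38. There 2 of the 38, Sv2c and Doc2b (edgeR, unadjusted p = 0.00474), had an unadjusted p under 0.05. DESeq2 gave 555 of 33611 genes with an unadjusted p under 0.05 and none adjusted. Limma-voom gave 492 of 17195 and none, and the main fit 481 of 17195 and none. Leaving out 1 mouse, the genes with an unadjusted p under 0.05 numbered 431 to 674 and those with an adjusted one 0 to 2, and of the 38 there were 0 to 2 higher and 0 to 4 lower. The 4 lower were Syt7, Syt13, Stx1a and Syngr1, without Adrb1-A187V;PS19 mouse 2, where Doc2b was also higher (0.38). That fit called 6 of the 38, against 674 of 17450 genes, the most of these fits. Syt13 also passed without PS19 mouse 1, with 2 of the 38 called against 550 of 17548 genes. Syt2 (higher) and Syn2 (lower) passed without PS19 mouse 3, with 3 of the 38 against 607 of 17496. Doc2a (lower) passed without Adrb1-A187V;PS19 mouse 1, with 2 of the 38 against 632 of 17573. Each of these counts includes Sv2c. With 1 mouse left out, between 21 and 26 of the 38 had a value below 0. Syngr3 turned to 0.0030 with limma-voom and to 0.0030 with library totals alone. Log2 fold changes whose sign turned without some mouse were those of Syt2 (-0.0321 to 0.16), Syt3 (-0.11 to 0.00585), Syt5 (-0.00491 to 0.0763), Syt6 (-0.053 to 0.30), Syt9 (-0.0791 to 0.13), Syt10 (-0.20 to 0.18), Syt17 (-0.15 to 0.0388), Snap25 (-0.093 to 0.0122), Vamp1 (-0.00465 to 0.14), Sv2b (-0.0877 to 8.02e-05), Cplx1 (-0.0945 to 0.00339), Cplx2 (-0.0181 to 0.0972), Rab3b (-0.0698 to 0.0767), Rab3c (-0.0476 to 0.0733) and Syngr3 (-0.0534 to 0.0377). So did the log2 ratios of Syn1 to Syn2 (-0.0465 to 0.064), Sv2a to Sv2b (-0.0223 to 0.0400) and Rab3c to Rab3a (-0.0217 to 0.14). The correlation of Cplx1 with Cplx2 ran from -0.12 to 0.35. The median r of the pairs was 0.24 with genotype means removed and ran from 0.19 to 0.23 without 1 mouse. The causes were not tested. No paired analysis was possible because mouse numbers in the labels are unique and name no litter or pair.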
